A study of Rattus norvegicus with 21 samples.

Results

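The subject is the response of a cathepsin H clone of INS-1 cells, a rat insulinoma line that secretes insulin, to 6 h of inflammatory cytokines. The clone, written pCTSH#1 in the description of the series and pCTSH1 in the sample titles, carried a stably transfected plasmid that encodes the lysosomal protease cathepsin H (CTSH). It was compared at 6 h of 150 pg/ml recombinant mouse IL-1β with 5 ng/ml recombinant rat IFNγ, 3 arrays, with the same clone at 0 h, 3 arrays. These 6 arrays were chosen by their titles from the 21 arrays of the study. A line with the empty vector (pcDNA) was treated in the same way and serves below for 1 comparison of responses, and arrays of pCTSH#1 at 16 h are set beside those at 6 h. pCTSH#1 is 1 clone, so what it shares with other cells that carry cathepsin H was not measured here. No untreated cells were collected at 6 h, so a change from 0 h cannot be told apart from time in culture or handling. The labels number the replicates without saying whether they are separate cultures. The p-values measure only the spread between arrays of a group, pooled over all 21 arrays of the study in 7 groups. These include the empty vector line at 16 h and INS-1 cells at 0 h.

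IL-1β binds a receptor that activates the kinases of the NF-kB and MAP kinase pathways, and NF-kB then moves to the nucleus and switches on chemokines, adhesion molecules and its own inhibitors. IFNγ binds a receptor coupled to the kinases JAK1 and JAK2, and the signal leads to factors such as IRF1 that drive antiviral and antigen presentation genes. Pancreatic beta cells have both receptors, and the pair of cytokines is used in culture to mimic the inflamed islet of type 1 diabetes, where it lowers insulin secretion and leads to apoptosis. Cathepsin H is a cysteine protease of the lysosome whose gene is a candidate gene for type 1 diabetes.

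The 6 arrays were alike in quality. Their median signals lay between 5.01 and 5.04 (log2 RMA signal, the scale of every level below), and 61.4% to 66.2% of probe sets were above the background of their array, set at its highest nonspecific control (4.01 to 4.17). The mean correlation of an array with the others of its group was 0.996 to 0.997, and between arrays at 6 h and at 0 h the correlations were 0.965 to 0.968. Ctsh, the rat gene of the transfected protease, read 4.12, 3.87 and 4.21 at 6 h, against 4.13, 3.85 and 4.02 at 0 h. These values lie at or near background and overlap, the difference did not pass (adjusted p = 0.874), and they do not check the transfection, because the species of the introduced sequence is not given in the labels. All 10 beta-cell markers were above background. Of 12 macrophage markers 10 were at background at both times, including Ptprc, Csf1r and Cd14, with summed levels of 7.35 to 7.53 at 6 h and 7.34 to 7.39 at 0 h, and 1 of the 12 passed upwards. Of 9 lymphocyte markers 8 were at background at 6 h and 9 at 0 h, and 2 passed upwards, Cd2 (4.54 at 6 h and 3.86 at 0 h) and Ms4a1 (3.97 and 3.71). Of 7 endothelial markers 6 were at background at 6 h and 7 at 0 h.

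After 6 h of cytokines 8304 of 31042 probe sets (26.8%) had changed at an adjusted p below 0.05, 3327 upwards and 4977 downwards. Rises reached larger sizes than falls. Taking 1 probe set for each of 13440 named genes, 1746 genes rose (13.0%) and 2855 fell (21.2%), and 611 rose (4.55%) and 314 fell (2.34%) by at least 2-fold. The shares of 13.0% and 21.2% are the ones to set beside every list count below. A rise of at least log2 3, which is 8-fold, was seen for 124 genes and a fall of that size for none, while 255 rose and 21 fell by at least log2 2. The median difference of all genes was -0.06. At background on all 3 arrays at 0 h and above it on all 3 at 6 h were 87 genes, and 17 went the other way. The arrays of the groups did not overlap for 6692 genes (49.8%). The share of probe sets that rose among those called was 40.1%, and 51.9% after cyclic loess normalization, so the balance of small rises and falls depends on the scaling.

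**Figure D1:**
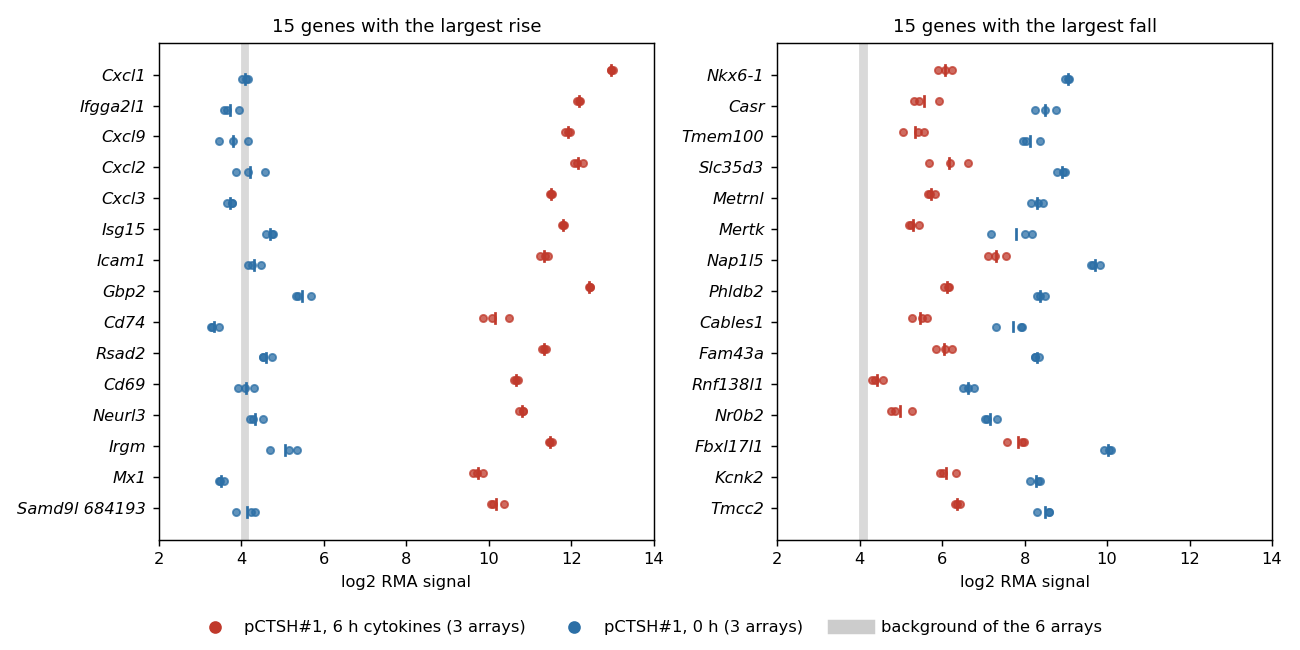
Log2 RMA signal (horizontal axes) of the 15 genes with the largest rise and the 15 with the largest fall, each with 3 arrays of pCTSH#1 at 6 h of cytokines (red) above 3 at 0 h (blue). Short bars are group means and the grey band is the range of array background, from 4.01 to 4.17. The groups do not overlap for any gene shown, and all arrays of the falling genes lie above the band.

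Among the 15 genes with the largest rises, Cxcl1, which attracts neutrophils, read 12.95, 13.01 and 12.96 at 6 h, against 4.02, 4.16 and 4.11 at 0 h, and the groups did not overlap. Its rise was at least 467-fold (adjusted p = 2.1e-21). Where at least 2 arrays of the lower group were at background, as here, the fold is a lower bound taken against that background. Ifgga2l1, a member of the interferon-inducible GTPases that act on pathogen vacuoles, rose at least 276-fold. Cxcl9, which attracts T cells, rose at least 223-fold, and the bound for the neutrophil chemokine Cxcl3 was 174-fold. Cxcl2, a relative of Cxcl1, rose by 7.96 ± 0.14 on the log2 scale (standard error of the fit, n = 3 per group, as after every ± below), Isg15, a ubiquitin-like protein of the antiviral response, by 7.10 ± 0.10, Icam1, which leukocytes adhere to, by 7.05 ± 0.14, and Gbp2, a guanylate-binding protein, by 6.98 ± 0.16. Cd74, the invariant chain of class II molecules, rose at least 67.4-fold and Mx1, an antiviral GTPase, at least 50.6-fold. The lymphocyte activation gene Cd69 (6.55 ± 0.12) and the ubiquitin ligase gene Neurl3 (6.47 ± 0.11) were also among these 15 genes.

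Promoters were searched for letters that the factors of both pathways are known to bind. A table from RefSeq (build GRCr8) held a start for 11057 of the measured genes, and the 250 bases before it were searched on both strands for the interferon-stimulated response element as GAAANNGAAA (ISRE), the gamma-activated site as TTCNNNGAA (GAS) and the NF-kB consensus. Of the 124 genes that rose at least 8-fold 93 had a promoter there. An ISRE was present in 23.7% of these 93, against 2.66% of all measured genes, a GAS in 16.1% against 6.15%, and an NF-kB motif in 26.9% against 8.36%. Any of the 3 was present in 45 of the 93 (48.4%), against 16.1% of all measured genes; the rest held none. Among all 1423 risers with a promoter the shares were 6.32%, 7.31% and 12.2%, and among 2396 fallers they were 1.34%, 4.05% and 8.01%. No test was made of these shares, and a match is a description of the letters, not a sign that a factor was bound. A set of 35 genes joined the 15 largest rises with leading risers of the CXC chemokine, interferon and antigen presentation lists. Of these 35, 25 had a promoter in the table and 20 a match. Shown are 6 promoters, those of the largest rises among these 20, so they were chosen for holding a match. Sequences run 5′ to 3′ towards the gene's start, and capitals mark matches.
Cxcl1, chr14:17479322-17479571, minus strand: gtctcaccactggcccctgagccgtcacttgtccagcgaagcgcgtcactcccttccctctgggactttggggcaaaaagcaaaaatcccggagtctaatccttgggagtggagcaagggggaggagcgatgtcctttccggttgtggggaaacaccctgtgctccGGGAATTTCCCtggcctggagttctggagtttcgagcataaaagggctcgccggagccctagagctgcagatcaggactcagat
Ifgga2l1, chr18:56031657-56031906, plus strand: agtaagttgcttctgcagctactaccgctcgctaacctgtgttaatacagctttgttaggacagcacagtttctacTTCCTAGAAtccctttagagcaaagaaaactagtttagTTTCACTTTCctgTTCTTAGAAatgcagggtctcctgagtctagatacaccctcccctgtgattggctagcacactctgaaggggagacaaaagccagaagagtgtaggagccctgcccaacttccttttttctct
Cxcl2, chr14:17467256-17467505, minus strand: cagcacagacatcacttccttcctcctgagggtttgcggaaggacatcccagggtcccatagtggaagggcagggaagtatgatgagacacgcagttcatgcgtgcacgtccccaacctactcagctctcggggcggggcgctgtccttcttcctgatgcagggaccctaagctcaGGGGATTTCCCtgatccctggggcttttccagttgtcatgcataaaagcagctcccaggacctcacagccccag
Icam1, chr8:27829595-27829844, plus strand: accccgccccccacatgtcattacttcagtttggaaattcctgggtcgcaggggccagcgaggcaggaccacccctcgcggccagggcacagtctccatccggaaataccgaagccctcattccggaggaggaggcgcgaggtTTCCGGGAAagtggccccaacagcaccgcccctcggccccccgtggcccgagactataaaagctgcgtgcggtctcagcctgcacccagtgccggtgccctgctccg
Gbp2, chr2:234005477-234005726, plus strand: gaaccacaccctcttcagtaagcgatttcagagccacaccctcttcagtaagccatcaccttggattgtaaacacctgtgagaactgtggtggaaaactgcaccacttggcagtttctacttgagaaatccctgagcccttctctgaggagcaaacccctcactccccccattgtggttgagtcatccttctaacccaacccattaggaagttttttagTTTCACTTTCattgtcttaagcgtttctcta
Cd74, chr18:56526956-56527205, plus strand: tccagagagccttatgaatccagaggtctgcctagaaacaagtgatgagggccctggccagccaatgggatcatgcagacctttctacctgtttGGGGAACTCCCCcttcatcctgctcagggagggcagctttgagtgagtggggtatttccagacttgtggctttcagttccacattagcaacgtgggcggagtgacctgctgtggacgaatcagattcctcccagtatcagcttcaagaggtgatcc
Cxcl1 and Cxcl2 each hold a pair of overlapping NF-kB matches, from base 84 to base 74 before the start in Cxcl1 and from base 74 to base 64 in Cxcl2. Ifgga2l1 holds an ISRE, at bases 136 to 127, between 2 GAS matches, and Gbp2 an ISRE at bases 31 to 22. Icam1 holds a GAS at bases 107 to 99, and Cd74 overlapping NF-kB matches from base 156 to base 145.

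Genes of the receptors and signal carriers of both cytokines rose more often than they fell. Of 21 measured, 13 rose and 1 fell, with a median difference of 1.12. Irf1, a transcription factor induced by IFNγ, read 12.81, 12.87 and 12.79 at 6 h, against 8.41, 8.57 and 8.31 at 0 h. It rose by 4.39 ± 0.08 (adjusted p = 1.1e-18), with no overlap. Irf7 (4.30 ± 0.14), Stat2 (3.31 ± 0.12) and Irf9 (2.39 ± 0.10), partners in type I interferon signalling, rose too, and so did the kinase gene Jak2 (3.09 ± 0.10) and Il1r2 (3.45 ± 0.12), a decoy receptor for IL-1. Jak1, the partner kinase of JAK2, differed by -0.10 ± 0.06 and did not pass (adjusted p = 0.29). Of 20 NF-kB subunit and regulator genes 17 rose and none fell (median 1.92), and 14 of them rose at least 2-fold. Map3k8, a kinase of the pathway, rose at least 33.9-fold. The apoptosis inhibitor Birc3 rose by 4.98 ± 0.20, the atypical inhibitor Nfkbiz by 4.96 ± 0.17, the subunit Nfkb2 by 3.45 ± 0.13 and the inhibitor Nfkbia by 3.17 ± 0.09. Chuk, a kinase subunit that releases NF-kB, differed by 0.06 ± 0.08 (adjusted p = 0.67).

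Of 17 inhibitors of cytokine signalling 9 rose, 3 fell and 5 did not pass (median 0.44). Socs1, which blocks JAK kinases, read 7.64, 7.85 and 7.65 at 6 h, against 4.09, 3.87 and 4.32 at 0 h, and rose by 3.62 ± 0.13 (adjusted p = 2.5e-14). Its arrays did not overlap, and at 0 h they were near background. Usp18, which shuts off type I interferon receptors, rose by 5.36 ± 0.14. Genes of RNA-binding proteins that destabilise cytokine transcripts rose as well, Zc3h12a at least 19.9-fold and Zfp36 by 3.77 ± 0.15. The phosphatase gene Ptpn2, a type 1 diabetes candidate, rose by 0.90 ± 0.09, whereas Ptpn11 (0.11 ± 0.08) and Ptpn6 (-0.01 ± 0.10) did not pass.

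All CXC chemokine genes that were above background at 6 h had risen. These were 8 of 13, each by at least 2-fold, with a median of 2.51 over the list, while the other 5, among them Cxcl13 and Pf4, were at background at both times. Cxcl10, a T cell chemokine, read 13.67, 13.67 and 13.64 at 6 h, against 8.40, 8.44 and 8.03 at 0 h, and rose by 5.37 ± 0.11 (adjusted p = 3.2e-18). Its relative Cxcl11 rose by 3.17 ± 0.07, Cxcl16 by 2.51 ± 0.12 and Cxcl12, which guides leukocytes through the receptor CXCR4, by 1.97 ± 0.16. The CC and CX3C group was less uniform: 4 of 18 rose, 1 fell and 9 were at background at both times (median 0.03). Ccl20 rose at least 16.5-fold, the membrane-bound Cx3cl1 at least 16-fold and the monocyte chemokine Ccl2 at least 4.13-fold, each with all or most arrays at 0 h at background. Ccl5 rose at least 2.16-fold.

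Secreted cytokines included genes that cells of the immune system usually make. Of 24 measured, 14 rose and 1 fell (median 1.06). In a test limited to the brighter 50% of probe sets, which leaves dim members untested, 8 rose. Tnf read 9.09, 9.05 and 9.84 at 6 h, against 3.16, 3.73 and 3.74 at 0 h, with no overlap. All arrays at 0 h were at background, and the rise was at least 38.2-fold (adjusted p = 2.4e-15). Ltb, which encodes lymphotoxin beta, rose by 5.86 ± 0.12, Il15 by 3.11 ± 0.12 and Csf2, the growth factor GM-CSF, at least 5.7-fold. Gdf15, a stress-induced member of the TGF-beta family, rose by 1.57 ± 0.21. Il1b, the gene of one of the added cytokines, was at background at both times (3.82 at 6 h and 3.89 at 0 h).

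Of 42 antiviral interferon genes 41 rose and none fell (median 3.24), 39 by at least 2-fold. Isg15 read 11.81, 11.77 and 11.83 at 6 h, against 4.59, 4.75 and 4.78 at 0 h, without overlap (adjusted p = 1.2e-20). Rsad2, which encodes the antiviral enzyme viperin, rose by 6.74 ± 0.10, Mx2 by 5.96 ± 0.12, Rtp4 by 5.82 ± 0.17 and Oas1a, which senses double-stranded RNA, by 5.75 ± 0.15. Ifih1, the RNA sensor MDA5 and a type 1 diabetes candidate, rose by 2.48 ± 0.19. The member that did not pass was Ifitm2, a membrane protein that hinders virus entry, at 11.91 at 6 h and 11.81 at 0 h (adjusted p = 0.47). In the shorter list of IFNγ GTPases and tryptophan breakdown 7 of 9 rose (median 5.10). Irgm (6.43 ± 0.15), Igtp (5.39 ± 0.13), Gbp7 (5.10 ± 0.09) and Gbp4, at least 40.6-fold, are GTPases against intracellular pathogens. Ido1, the first enzyme of tryptophan breakdown, rose at least 3.69-fold and Wars1, the tryptophan tRNA synthetase, by 1.84 ± 0.07, while Kmo and Kynu, later enzymes of the route, were at background at both times.

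Antigen presentation was described by 4 lists. Of 5 immunoproteasome genes all rose (median 2.24). Psmb8, a catalytic subunit that replaces its constitutive counterpart, read 11.45, 11.43 and 11.43 at 6 h, against 7.16, 7.34 and 7.32 at 0 h, and rose by 4.16 ± 0.08 (adjusted p = 8.1e-19). The groups were far apart relative to their spread. Psmb9 rose by 4.18 ± 0.09, Psmb10 by 2.24 ± 0.10 and the activator subunit Psme1 by 1.11 ± 0.08. The small rise of the assembly factor Pomp (0.19 ± 0.06, adjusted p = 0.032) was not kept in every alternative fit. Of 13 genes of the constitutive proteasome core 8 rose, none of them 2-fold (median 0.34): 7 of these were alpha subunits, such as Psma6 (0.55 ± 0.08) and Psma4 (0.52 ± 0.07), and the eighth was Psmb2 (0.33 ± 0.07). The measured beta subunits that the immunoproteasome replaces did not pass, with Psmb5 at -0.08 ± 0.09 and Psmb7 at -0.05 ± 0.11. Of 14 class I and peptide loading genes 10 rose, none fell and 4 did not pass (median 1.99). Tap1 (5.89 ± 0.10) and Tap2 (4.59 ± 0.11), which carry peptides into the endoplasmic reticulum, rose. RT1 genes of the rat encode class I and class II molecules. Of those in the class I list, RT1-CE5 (3.58 ± 0.15), RT1-T24-4 (3.37 ± 0.12) and RT1-S3 (2.58 ± 0.10) rose. These are close relatives, and their probe sets may share signal. Canx (-0.14 ± 0.09) and Calr (-0.07 ± 0.10), general chaperones of the endoplasmic reticulum, did not pass.

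Class II molecules are usually limited to professional antigen-presenting cells. Of 11 genes of these molecules, their loading and their regulation, 8 rose and 1 fell (median 1.70). The fall was Rfxap, whose call was lost after cyclic loess (adjusted p = 0.0866) and in some fits with 1 array left out. Cd74 read 10.07, 9.87 and 10.49 at 6 h, against 3.45, 3.26 and 3.29 at 0 h, and no array overlapped. RT1-Da rose at least 32.9-fold, RT1-Ba at least 13.1-fold and RT1-Db1 at least 4.62-fold. Replicates of these genes were further apart at 6 h than most, with an SD of 0.43 for RT1-Da and 0.69 for RT1-Db1. Ciita, the master activator of class II genes, read 5.94 ± 0.06 at 6 h and 4.24 ± 0.07 at 0 h (SD) and rose by 1.70 ± 0.11 (adjusted p = 1.9e-10). RT1-DMa (1.62 ± 0.14) and RT1-DMb (2.56 ± 0.21), which load peptides, and Rfx5 (1.03 ± 0.09), a factor that binds class II promoters, rose. The protease gene Ctss, which trims the invariant chain, did not pass (adjusted p = 0.12), with all arrays at background at 0 h. Beside these rises, 10 of 12 macrophage markers were at background at both times, the other 2 (Cd68 and Lyz2) did not pass, and Fcgr3a, among the 10, passed upwards (4.01 at 6 h and 3.63 at 0 h). The part of other cells in the class II rise was not tested.

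Among adhesion and checkpoint genes 7 of 15 rose and none fell (median 0.28). Icam1 read 11.24, 11.37 and 11.43 at 6 h, against 4.48, 4.16 and 4.25 at 0 h. Tnfrsf14 (3.40 ± 0.19) and Cd40 (3.39 ± 0.12), receptors of the TNF family, rose, as did Cd47 (1.01 ± 0.07), which restrains phagocytes. In the complement and acute phase list 7 of 24 rose and 2 fell (median 0.14), and 10 were at background at both times. Those that rose had among them the first steps of the classical pathway and its inhibitor: Serping1 at least 23.6-fold, C1s at least 21.1-fold and C1r by 4.21 ± 0.16. The central component C3 rose at least 13.1-fold, Lcn2, an iron-binding acute phase protein, at least 10.2-fold and factor B, Cfb, by 1.41 ± 0.21. C1qa differed by -0.35 ± 0.16 and did not pass (adjusted p = 0.13).

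**Figure D2:**
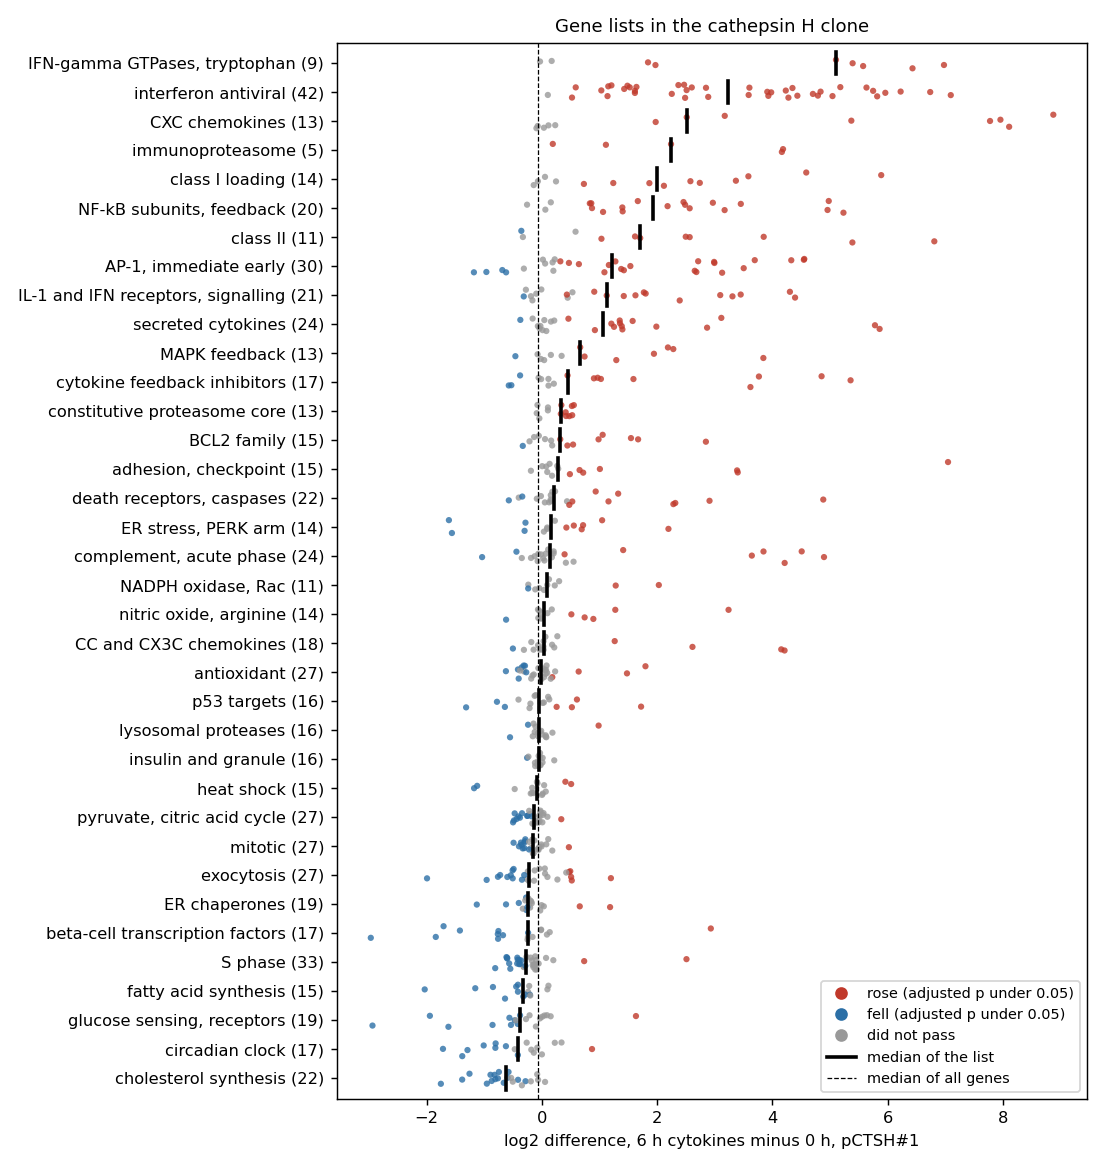
Log2 difference of pCTSH#1, 6 h of cytokines minus 0 h (horizontal axis), for the members of 36 gene lists (rows, with the number of genes measured), ordered by the median of the list (black bar). Points are genes, red where they rose, blue where they fell and grey where they did not pass, and the dashed line is the median of all genes at -0.06. IFNγ GTPases (median 5.10) and antiviral genes (3.24) lie highest and cholesterol synthesis (-0.63) lowest.

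Immediate early genes, many of them transcription factors, follow MAP kinase activity. Of 30 measured, 20 rose, 4 fell and 6 did not pass (median 1.22). Egr1 read 11.67, 11.71 and 12.02 at 6 h, against 7.56, 7.57 and 7.28 at 0 h, and rose by 4.33 ± 0.12 (adjusted p = 1.6e-16). Jun (4.55 ± 0.17) and Junb (3.13 ± 0.19), subunits of AP-1, and Atf3 (4.55 ± 0.12), a stress-induced partner, rose, while Nr4a3, an orphan nuclear receptor, rose at least 11.5-fold. Its relatives Nr4a1 and Nr4a2 were among the 4 that fell. No gene of this list fell among the brighter 50% of probe sets, a test that leaves out dim members. Myc differed by 0.18 ± 0.09 and did not pass (adjusted p = 0.16). Of 13 feedback genes of the MAP kinases 7 rose and 1 fell (median 0.66), including the phosphatase genes Dusp6 (2.19 ± 0.15) and Dusp5 (1.94 ± 0.15), the inhibitor Spry4 (2.28 ± 0.17) and Gadd45b (3.84 ± 0.14), which acts on stress kinases.

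Of genes for nitric oxide and arginine, 5 of 14 rose and 1 fell (median 0.04). Nos2, the inducible synthase whose nitric oxide harms beta cells, read 6.71, 6.46 and 6.78 at 6 h, against 3.23, 3.60 and 3.39 at 0 h. All arrays at 0 h were at background, so the rise is at least 5.97-fold (adjusted p = 1.8e-11). Ass1, which remakes arginine (1.27 ± 0.14), Arg1, which breaks it down (0.89 ± 0.08), and Gch1, which makes the cofactor of the synthase (0.74 ± 0.09), rose, and Spr, a later enzyme of that cofactor's synthesis, fell by 0.62. The other synthase genes, Nos1 and Nos3, were at background at both times. Of 11 NADPH oxidase and Rac genes 2 rose, Nox1 and Rac2, and 1 fell, Ncf1, at background at both times and with a call that most alternatives did not keep. Nox1, an oxidase subunit that makes superoxide, read 6.76, 7.02 and 7.52 at 6 h, against 5.08, 4.88 and 5.26 at 0 h, and rose by 2.03 ± 0.18 (adjusted p = 2.5e-08). Rac2, a small GTPase that activates such oxidases and is named in the title of the study, read 5.56, 5.31 and 6.16 at 6 h, against 4.37, 4.47 and 4.35 at 0 h. It rose by 1.28 ± 0.19 (adjusted p = 2.4e-05), with no overlap. At 0 h it was near but above background, so its fold may be compressed, which was not tested. Rac1, its widely expressed relative, differed by 0.09 ± 0.07 (adjusted p = 0.40). Of 27 antioxidant genes 4 rose and 7 fell (median -0.01), or 4 fell after cyclic loess, shares near those of all genes (13.0% and 21.2%). Sod2, the mitochondrial superoxide dismutase (1.80 ± 0.08), and Hmox1, which degrades haem (1.48 ± 0.22), rose, whereas the catalase gene Cat (-0.42 ± 0.11) and the peroxiredoxin gene Prdx6 (-0.40 ± 0.09) fell.

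Genes of cell death and of survival were both among those that rose. In the BCL2 family 8 of 15 rose and 1 fell (median 0.32). Bid, which links death receptors to mitochondria, rose by 2.84 ± 0.10, the killer gene Bak1 by 1.05 ± 0.10 and Bbc3, which encodes PUMA, by 0.98 ± 0.11, and the survival gene Mcl1 rose by 1.54 ± 0.08. Bcl2l1, which encodes BCL-XL, differed by 0.16 ± 0.14 and did not pass (adjusted p = 0.48). Of 22 death receptor and caspase genes 9 rose and 2 fell (median 0.20). Fas, the death receptor for FAS ligand, read 9.54, 9.59 and 9.75 at 6 h, against 4.65, 4.70 and 4.89 at 0 h. It rose by 4.88 ± 0.12 (adjusted p = 4.3e-17) with no overlap. The inflammatory caspase gene Casp4 rose at least 6.27-fold, Apaf1, the scaffold of the apoptosome, by 2.31 ± 0.18, Gsdmd, which forms pores in the membrane, by 2.28 ± 0.18 and Cflar, an inhibitor of caspase 8, by 1.15 ± 0.17.

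The stress response of the endoplasmic reticulum had no common direction at this time. In the PERK arm, which slows translation and induces the factors ATF4 and CHOP, 6 of 14 rose and 4 fell (median 0.16). Ddit3, which encodes CHOP, read 8.73, 8.63 and 8.40 at 6 h, against 7.60, 7.59 and 7.45 at 0 h, and rose by 1.04 ± 0.10 (adjusted p = 3.9e-08). Ppp1r15a, which restores translation, rose by 2.20 ± 0.14 and the kinase gene Eif2ak3, PERK itself, by 0.69 ± 0.15. Chac1, which degrades glutathione, read 5.48, 5.40 and 5.72 at 6 h, against 5.17, 5.51 and 5.67 at 0 h, and these ranges overlap (0.09 ± 0.13, adjusted p = 0.70). Trib3, a pseudokinase downstream of CHOP (0.03 ± 0.19), Atf4 (0.22 ± 0.09) and Nupr1 (0.09 ± 0.15) did not pass either. Vldlr (-1.62 ± 0.09) and Sesn2 (-1.56 ± 0.11), known targets of the arm, fell. Of 19 chaperone and export genes 2 rose and 6 fell (median -0.24), or 3 fell after cyclic loess and also without replicate 1 or 2 at 6 h or replicate 1 or 2 at 0 h. Edem1, of the degradation route, rose by 1.18 ± 0.10. Wfs1, the gene of Wolfram syndrome, (-1.13), and the calcium pump gene Atp2a2 (-0.62) fell, while the chaperone gene Hspa5 differed by 0.03 ± 0.13. Heat shock genes had 2 up and 2 down of 15, the falls being Hspa1a (-1.18 ± 0.24) and Bag3 (-1.12 ± 0.13). The fall count was 4 in 4 alternatives, among them the brighter 50% of probe sets. Among p53 targets Cdkn1a, the inhibitor p21, rose by 1.72 ± 0.10 and Sesn1 fell by 1.32, with 4 up and 3 down of 16. Over all genes 13.0% rose and 21.2% fell. The chaperone, heat shock and p53 counts are not read as results about these lists.

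Of 17 transcription factors of the beta cell 9 fell and 1 rose (median -0.25). In RNA of whole cultures, fewer cells of a kind and less RNA per cell cannot be told apart. Nkx6-1, which maintains beta-cell identity, read 5.89, 6.25 and 6.08 at 6 h, against 8.98, 9.08 and 9.06 at 0 h. Its fall by 2.97 ± 0.16 (adjusted p = 1.2e-11) headed the list of falls among all named genes, and the groups did not overlap. Isl1 (-1.84 ± 0.23), Nkx2-2 (-1.71 ± 0.16) and Foxa2 (-1.42 ± 0.08), factors of islet development, fell as well, while Pax6 (-0.16 ± 0.09) and Neurod1 (-0.24 ± 0.10) did not pass. The small fall of Pdx1 (-0.24 ± 0.08, adjusted p = 0.030) was lost after cyclic loess (0.156), in a fit of only these arrays (0.0541) and without replicate 3 at 6 h (0.131) or replicate 2 (0.0721) or 3 (0.0959) at 0 h. Tcf7l2, a factor of Wnt signalling, rose by 2.93 ± 0.13, its arrays at 9.18, 8.99 and 9.12 at 6 h and 6.17, 6.31 and 6.01 at 0 h.

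Of 16 insulin and granule genes none rose and 1 fell (median -0.06), the phosphatase-like gene Ptprn, with a call that 7 alternatives did not keep. Ins1 read 13.69, 13.68 and 13.69 at 6 h, against 13.76, 13.71 and 13.69 at 0 h, a difference of -0.03 ± 0.06 (adjusted p = 0.77). Ins2 (-0.06 ± 0.08), the amylin gene Iapp (-0.03 ± 0.07) and Chga (-0.06 ± 0.06) did not pass. These signals are near the top of the scale, where arrays can saturate and differences shrink. Of 19 genes of glucose sensing and surface receptors 9 fell and 1 rose (median -0.38). Casr, the calcium-sensing receptor, read 5.44, 5.31 and 5.93 at 6 h, against 8.26, 8.49 and 8.75 at 0 h, and fell by 2.94 ± 0.20 (adjusted p = 6e-10). The adenosine receptor gene Adora2b (-1.95 ± 0.16), the glucose transporter gene Slc2a1 (-1.62 ± 0.12), the prolactin receptor gene Prlr (-0.86 ± 0.10) and Kcnj11, a subunit of the ATP-sensitive potassium channel (-0.38 ± 0.08), fell, and Slc2a2, the beta-cell glucose transporter, differed by -0.03 ± 0.07 (adjusted p = 0.81). Igf1r rose by 1.63 ± 0.11. Of 27 exocytosis genes 11 fell and 5 rose (median -0.23). Rab3a, a GTPase of secretory vesicles, (-1.99), Sytl4, which docks granules (-0.96), and Cplx2, which clamps their fusion (-0.60), fell, and Cadps2, which primes granules, rose by 1.20 ± 0.11.

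The other leading falls came from genes of varied function. Metrnl, a secreted factor, read 5.71, 5.82 and 5.66 at 6 h, against 8.33, 8.15 and 8.45 at 0 h. Its arrays did not overlap (-2.58 ± 0.14). Tmem100 (-2.78 ± 0.24), Slc35d3 (-2.73 ± 0.18), Mertk, a receptor for the clearance of dead cells (-2.50 ± 0.22), and Nap1l5 (-2.39 ± 0.20) fell. Nr0b2, a nuclear receptor that represses transcription (-2.18 ± 0.20), and Kcnk2, a potassium channel gene (-2.18 ± 0.16), fell too.

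In cholesterol synthesis 15 of 22 genes fell, none rose and 7 did not pass (median -0.63). Insig1, which restrains the pathway's regulator, read 8.52, 8.29 and 8.97 at 6 h, against 10.64, 10.56 and 9.86 at 0 h, with replicate 3 of each group apart from the others but no overlap. It fell by 1.75 ± 0.27 (adjusted p = 3.2e-05), and the enzymes of the squalene steps Fdft1 (-1.39 ± 0.26) and Sqle (-1.26 ± 0.15) fell. Srebf2, the regulator itself, differed by 0.05 ± 0.11 (adjusted p = 0.80). In fatty acid synthesis 10 of 15 fell, none rose and 5 did not pass (median -0.33). Elovl6, which lengthens fatty acids, read 6.70, 6.44 and 6.64 at 6 h, against 8.78, 8.70 and 8.40 at 0 h, a fall of 2.04 ± 0.22 (adjusted p = 5e-07). The desaturase genes Scd2 (-1.16 ± 0.17) and Fads1 (-0.85 ± 0.15) and the synthase gene Fasn (-0.64 ± 0.13) fell. In pyruvate use and the citric acid cycle 10 of 27 fell and 1 rose (median -0.14), or 5 fell after cyclic loess. The falls there were small, such as Gpd2 (-0.50 ± 0.09), Idh2 (-0.49 ± 0.08), Sucla2 (-0.47 ± 0.08) and the pyruvate dehydrogenase subunit gene Pdhb (-0.38 ± 0.09).

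Of 33 S phase genes 14 fell, 2 rose and 17 did not pass (median -0.27). Of 27 mitotic genes 10 fell, 1 rose and 16 did not pass (median -0.16). No fall in these lists reached 2-fold. Uhrf1, which maintains DNA methylation, (-0.81), Rrm2, which makes deoxynucleotides (-0.60), and the mitotic genes Kif20a (-0.49) and Aurka (-0.40) fell. Ccnd1, the cyclin that drives entry into the cycle, rose by 2.51 ± 0.14. Among circadian clock genes 8 of 17 fell and 1 rose (median -0.42). The repressor genes Cry2 (-1.72 ± 0.17), Nfil3 (-1.38 ± 0.12) and Bhlhe41 (-1.29 ± 0.09) and the output factor Dbp (-1.01 ± 0.09) fell, Bhlhe40 rose by 0.87 ± 0.11, and the core activator Bmal1 did not pass (-0.14 ± 0.13).

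Among 16 genes of lysosomal proteases, protease inhibitors and lysosomal membrane proteins, a list that includes Ctsh, 1 rose and 2 fell (median -0.05). Both are lower shares than the 13.0% and 21.2% of all genes. Lgmn, an asparagine-specific protease, rose by 0.98 ± 0.09 and Ctsl, a cathepsin related to CTSH, fell by 0.55 ± 0.07. Ctsb (-0.13 ± 0.08) and Ctsd (-0.07 ± 0.07) did not pass, and Ctsz and Ctse were at background at both times. The second fall, Ctsf (-0.24 ± 0.08, adjusted p = 0.038), was lost in several alternatives. Of 18 type 1 diabetes candidates, a list that holds Ctsh and Rac2, 6 rose and 1 fell (median 0.17), among them Tyk2, a kinase of interferon receptors (1.12 ± 0.11), and Sh2b3, an adaptor of cytokine receptors (0.97 ± 0.09). Genes of prostaglandin synthesis had 1 fall of 12, Hpgd, which degrades prostaglandins (-0.96 ± 0.11). In the marker lists of other cells, Postn, a matrix gene of fibroblasts, rose by 2.53 (8.32 at 6 h and 5.80 at 0 h). It was the only 1 of 10 fibroblast markers that rose, and 2 fell, or 1 after cyclic loess. Summed levels of the 10 fibroblast markers were 9.41 to 9.50 at 6 h and 8.94 to 9.10 at 0 h, with Col1a1, Col1a2, Col3a1, Dcn, Lum and Fap at background at both times. The part of other cells in this rise was not tested.

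Arrays of the same clone at 16 h show where the genes stood later. They were compared with the arrays at 6 h that also define the early change, so both values share those arrays. No test was made of 16 h against 0 h, and no untreated cells were collected at 16 h. Of all genes 6614 (49.2%) differed between 16 h and 6 h, 3223 of them higher and 3391 lower at 16 h. Of the 1746 genes that rose at 6 h, 598 were higher and 585 lower at 16 h. Of the 2855 that fell at 6 h, 935 were higher and 1098 lower. Of the 15 genes with the largest rise, 9 were lower and 3 higher at 16 h than at 6 h. Tnf read 4.73, 4.82 and 4.84 at 16 h, against 9.09, 9.05 and 9.84 at 6 h, and Egr1 read 7.63, 7.88 and 8.01, against 11.67, 11.71 and 12.02 at 6 h. Both were lower on every array at 16 h (16 h minus 6 h -4.53, adjusted p = 2.5e-13, and -3.96, adjusted p = 3.2e-15). Nos2 (-1.35) and Socs1 (-2.80) were lower at 16 h too, and of the 8 CXC chemokines that had risen 6 were lower and none higher. Class II went the other way: 7 of the 8 that had risen were higher at 16 h, and Cd74 read 12.04, 12.05 and 12.01, above each array at 6 h. Of the 10 class I and loading genes that had risen 8 were higher and none lower. Of the 14 genes of the PERK arm all were higher at 16 h than at 6 h (median 1.82). Chac1 read 10.72, 10.67 and 10.82 and Trib3 11.43, 11.26 and 11.48 at 16 h, where neither had passed at 6 h. Rac2 (1.72) and Nox1 (1.55) were also higher at 16 h than at 6 h. Of the falls at 6 h, all 8 clock genes were higher at 16 h, 9 of 10 fatty acid genes were lower, and all 10 mitotic genes were lower. Over the whole mitotic list all 27 genes were lower at 16 h than at 6 h (median -1.05). Nkx6-1 was lower again at 16 h (-0.81, adjusted p = 3.1e-04), and Casr did not differ by the test (0.42, adjusted p = 0.11).

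**Figure D3:**
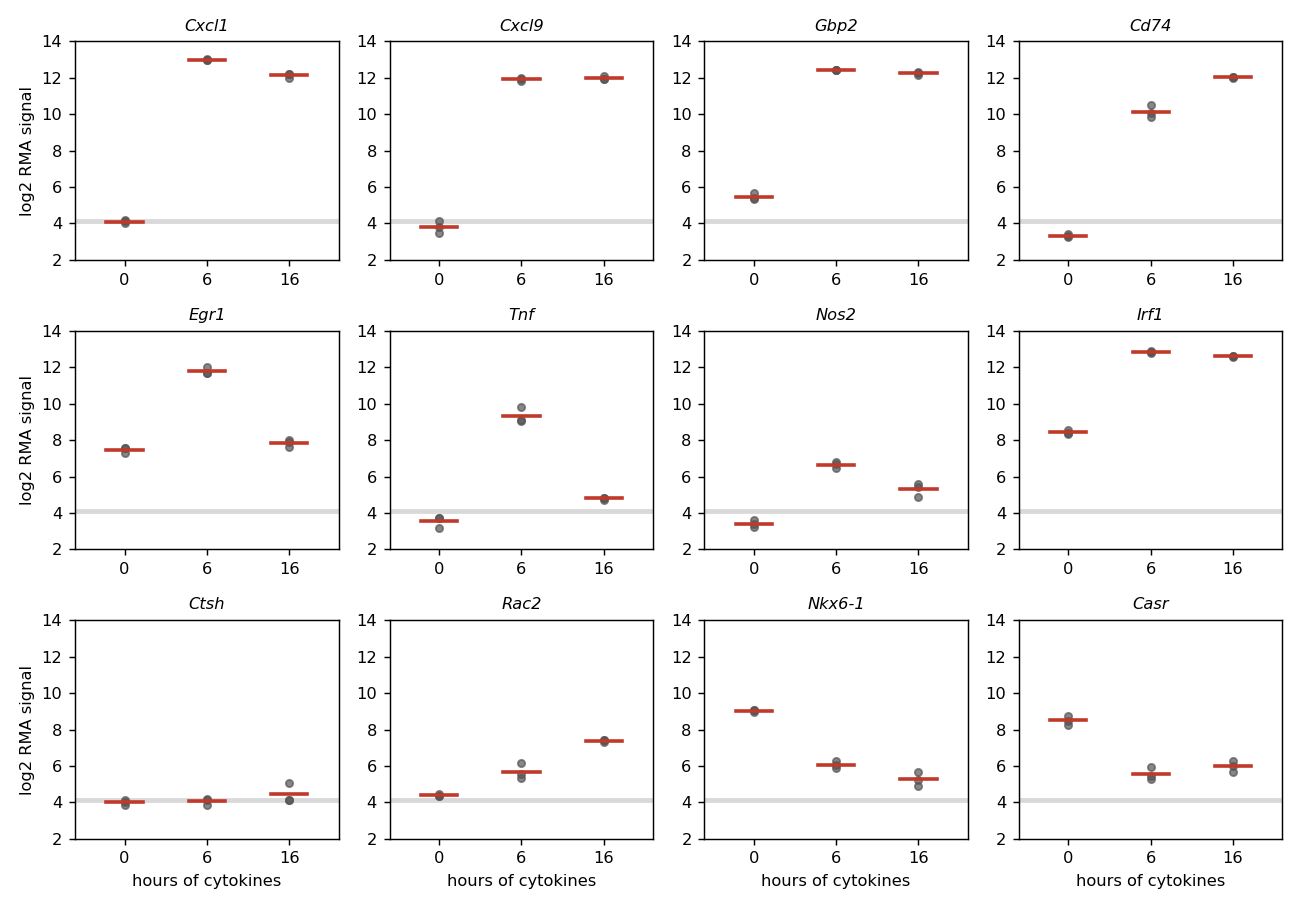
Log2 RMA signal (vertical axes) of 12 genes in pCTSH#1 at 0, 6 and 16 h of cytokines (horizontal axes). Points are the 3 arrays of each time, red bars their means and the grey band the background of the arrays at 0 and 6 h. Tnf and Egr1 peak at 6 h, Cd74 and Rac2 are highest at 16 h, and Nkx6-1 is lowest at 16 h.

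The response at 6 h was compared with that of the empty vector line, as the difference of both responses in the same fit. It passed for 16 of 13440 genes (0.119%), and for 32 probe sets, 6 with a higher and 26 with a lower value in pCTSH#1. A miss of this test does not show that the lines respond alike. An unadjusted p under 0.05 was found for 1827 of 31042 probe sets. That is not far above the share of 0.05 that this threshold passes without any difference. The median of the antiviral genes was 3.24 in pCTSH#1 and 3.17 in pcDNA. That of the PERK arm was 0.16 in pCTSH#1 and 0.84 in pcDNA, where 10 of 14 rose. The difference of responses passed for only 2 of these 14 genes, Chac1 and Ddit3, so a difference of the whole arm was not shown. Chac1 changed by 0.09 ± 0.13 in pCTSH#1 and by 2.66 ± 0.13 in pcDNA, a difference of -2.57 ± 0.18 (adjusted p = 4.6e-07). Ddit3 rose by 1.04 in pCTSH#1 and by 1.95 in pcDNA (-0.91 ± 0.13, adjusted p = 0.005). For Trib3 the probe set used here missed the test, but 2 further probe sets passed (-1.78 and -1.33), the first of them at or near background in pCTSH#1. The cyclooxygenase genes Ptgs1 and Ptgs2 were at or near background in pCTSH#1, where neither passed. In pcDNA Ptgs1 read 6.72 at 6 h and 4.49 at 0 h, and Ptgs2 read 5.33 at 6 h with all 3 arrays at background at 0 h, so no size is given for its rise. Myc changed by 0.18 in pCTSH#1 and by 0.93 in pcDNA. Psmb8 rose more in pCTSH#1 (4.16) than in pcDNA (3.51). In pcDNA it read 11.47, 11.55 and 11.51 at 6 h, against 7.91, 8.02 and 8.07 at 0 h, beside the values of pCTSH#1 given above. The lines were thus further apart at 0 h, where pCTSH#1 was the lower, than at 6 h. Oasl, an antiviral gene chosen here after its values were seen, read 4.78 in pCTSH#1 and 6.67 in pcDNA at 6 h, with both lines at background at 0 h. The rises of Rac2 (1.28 in pCTSH#1 and 0.65 in pcDNA) and Nox1 (2.03 and 0.90) did not differ by this test (adjusted p = 0.777 and 0.134).

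**Figure D4:**
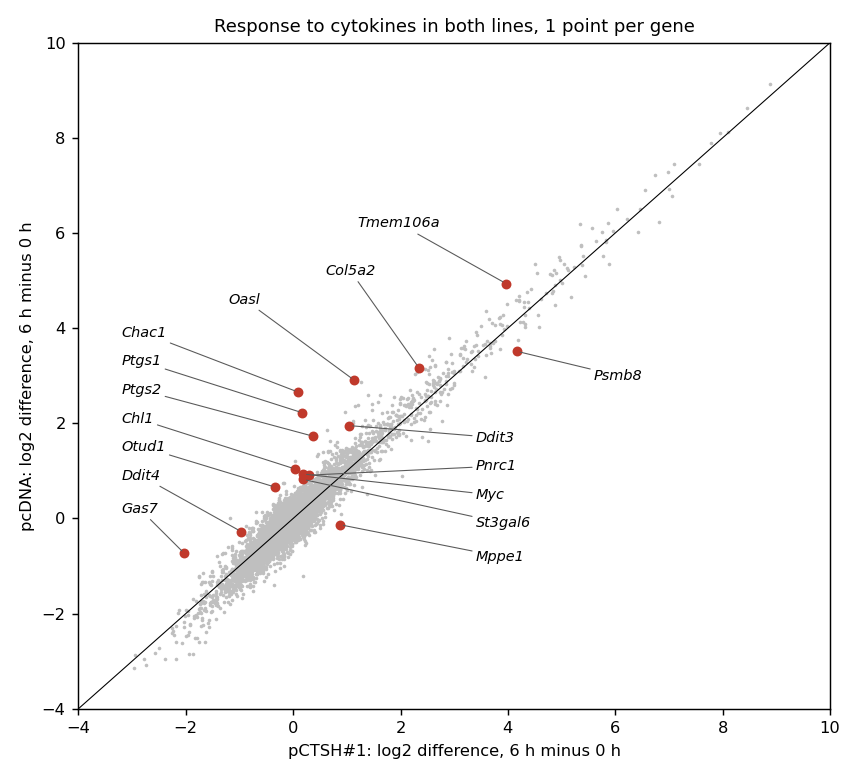
Log2 difference, 6 h minus 0 h, of pCTSH#1 (horizontal axis) and of pcDNA (vertical axis), 1 point for each of 13440 genes, with equal responses on the diagonal. The 16 genes whose responses differed by the test are red and named; Chac1 lies at 0.09 for pCTSH#1 and 2.66 for pcDNA.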

How the data were processed

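RNA of the 6 arrays compared, and of the other 15 in the study, was hybridised to Affymetrix arrays, 1 per sample. The authors deposited log2 signals of probe sets. Per the submitters' processing notes RMA, affy and limma were used, with no version given; genome build and annotation are not given in the sources used here. The values were used as deposited, after setting aside 95 control probe sets, with no filter on dim probe sets. The annotation table gave 1 gene symbol for 19062 of 31042 probe sets, several for 572 and none for 11408. Where a gene had several probe sets, the brightest on average stood for it; 3983 of 13440 genes had several, and those of 6 genes were called in both directions. A level at or below the highest of 21 nonspecific controls of an array counts as background, and a mean within 0.5 above it as near background.

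Differences were tested with limma 3.58.1 under R 4.3.3 (lmFit, eBayes), two-sided, in 1 model of 7 groups, with Benjamini-Hochberg adjustment over all probe sets within a comparison and a threshold of 0.05. The model was tested on simulated data. The comparison, the 45 gene lists and the rule for naming genes were chosen with earlier results of these data known. The rule names the 15 highest and 15 lowest genes that passed without overlap of the arrays, up to 6 called and 3 other members of a list, all members of lists of at most 16 genes, and the 8 genes with the smallest adjusted p for the difference of responses. It always names Ctsh, Rac2, Nox1, Nos2, Ins1, Ins2 and Nkx6-1. Nr4a1, Nr4a2, Oasl, Cav1, Fhl2, Chl1, Ddit4, St3gal6 and Pnrc1 were named after their values were seen. Sequences are from RefSeq. Plots were drawn with matplotlib 3.10.9.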

Additional observations from a re-analysis of the deposited data

Results flagged for a closer look

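The genes below were picked out because their change from 0 h to 6 h differed between pCTSH#1 and pcDNA by the test of the difference of responses. Values are the response of pCTSH#1 minus that of pcDNA, on the log2 scale. It was lower in pCTSH#1 for Chac1 (-2.57), Ptgs1 (-2.05), Ptgs2 (-1.35), Gas7 (-1.29), Otud1 (-0.99), Tmem106a (-0.97), Ddit3 (-0.91), Col5a2 (-0.83) and Myc (-0.75). It was higher in pCTSH#1 for Mppe1 (1.00) and Psmb8 (0.65). These are 11 of the 16 genes that passed; the other 5 were Oasl (-1.77), Chl1 (-1.004), Ddit4 (-0.69), St3gal6 (-0.64) and Pnrc1 (-0.61). Probe sets of Cav1 (1.51) and Fhl2 (-0.95) that do not stand for their gene here passed as well. Gas7 read 5.11 in pCTSH#1 and 3.81 in pcDNA at 6 h, and 7.14 and 4.54 at 0 h; pcDNA was at background at 6 h, so its fall, and with it this difference, is not a size. Ptgs1 was at background on 2 of 3 arrays of pCTSH#1 at both times, and Ptgs2 on 2 of 3 at 0 h and on all 3 of pcDNA at 0 h, so their differences are fitted values as well. Col5a2 read 6.53 in pCTSH#1 and 7.49 in pcDNA at 6 h, and 4.19 and 4.32 at 0 h, near background in both lines. Tmem106a read 9.83 and 9.91 at 6 h and 5.86 and 4.98 at 0 h, so the lines differed in the level at the start. No cause was tested for any of these.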

How the results depend on the processing

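Of the 256 named genes that passed at 6 h against 0 h, 29 lost their call in at least 1 alternative or leave-one-out fit. The other 227 passed in every such fit that tested them, and none of the 256 changed direction. The fit limited to the brighter probe sets left out dim genes such as Bak1, so it was no check of those. Of 1260 recomputed list counts 1150 stayed within 1.5 times the value given; most of the other 110 concern counts of 1 or 2. With arrays left out in turn, 7152 to 7524 probe sets were called in place of 8304, and the share that rose was 41.2% to 42.2%. It was 51.9% after cyclic loess, which moved the median of all probe sets to -0.0098 in place of -0.042. Asking also for a log2 difference of at least 1 left 1733 probe sets. The difference of responses between lines was less settled: 32 probe sets became 55 with trend and robust settings, 65 with array weights and 17 to 30 with arrays left out, the fewest being 17 without replicate 1 of pCTSH#1 at 0 h, 20 without its replicate 2, 20 without replicate 1 of pCTSH#1 at 6 h, and 19 without replicate 1 or 3 of pcDNA at 6 h. Residuals of arrays with equal replicate numbers correlated weakly, at 0.0316, 0.045 and 0.0221, and all 6 arrays had their best match at the own number. The main fit did not use the number. With the number as a replicate block 8535 and 35 probe sets were called. The planned pseudocount was not needed, since values were on a log scale. Signal near background limits the folds of many induced genes to lower bounds.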
